A study of Homo sapiens with 12 samples.

Results

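The expression of 10 genes for proteins of myeloid granules was examined in MOLM-13, a cell line from a human acute myeloid leukemia with a rearranged KMT2A gene. The genes were MPO, CTSG, ELANE, PRTN3, AZU1, LYZ, RNASE2, RNASE3, CFD and SRGN. They were chosen by symbol among the 46639 gene symbols of the deposited table, and the rows of each symbol were summed. A protein-coding gene was tested if 3 or more of the 12 libraries reached 10 normalised counts, which 10642 genes did, 8 of these 10 among them. PRTN3 and CFD fell short of that level and are given by their values.

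The cells were left untreated, were given 100 nM decitabine (DAC, an inhibitor of DNA methyltransferases), 1 µM all-trans retinoic acid (ATRA, the ligand of the RAR nuclear receptors), or the combination (DAC+ATRA). All 4 groups were kept in medium with 20% serum and 5 ng/ml GM-CSF, a growth factor of myeloid cells, for 3 days according to the labels. Each group holds 3 libraries, which are technical triplicates of 1 cell line, so p-values measure the spread between these libraries and not between independent cultures. The labels give 96 h for untreated and 72 h for all treated libraries, so in every comparison with untreated cells the drug and the labelled time cannot be told apart. In the study's methods the harvest for RNA sequencing is at 72 h, with no other time for untreated cells, and the serum percentage is lower than in the labels. The labels name no solvent for the untreated cells, whereas the study's methods describe controls given the vehicle. The 3 treated groups share the labelled time. The study's methods describe ATRA as added only at the end of the DAC course, which is a shorter exposure than the labels give.

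Granules of neutrophils and their precursors are membrane-bound stores of antimicrobial proteins. Primary (azurophil) granules are filled at the promyelocyte stage, when MPO, ELANE, CTSG, PRTN3 and AZU1 are transcribed at high levels, and transcription of these genes is shut off as the cells mature further. LYZ remains high in monocytes. RNASE2 and RNASE3 are best known from eosinophil granules, CFD is a serine protease of the complement system, and SRGN is the proteoglycan core that packs basic proteins into granules. Retinoic acid drives maturation of promyelocytes, and DAC lowers DNA methylation as cells divide.

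The recovered reads per library, in M (mega), numbered 8.95 to 11.9 for untreated cells. DAC libraries held 4.67 to 6.95 M, ATRA libraries 8.36 to 10.7 M and DAC+ATRA libraries 5.61 to 7.16 M. Both groups with DAC were the shallower ones, and the part of depth in the results was not tested. Of 8 genes chosen as a check of the cell line (FLT3, CD33, CD4, HOXA9, MEIS1, KMT2A, CSF2RA and FCGR1A), 7 were tested and CSF2RA was listed at 0 in every library. Their summed level was 20768 to 20954 normalised counts in untreated libraries and 13362 to 17281 in treated ones, and the part of this difference in the results was not tested. FLT3 made up most of the sum, with a mean of 14027 in untreated cells, and the single genes moved in both directions: with DAC+ATRA 3 of the 7 were lower and 2, CD33 and CD4, higher (limma). Summed markers of B cells, T or NK cells, erythroid cells, megakaryocytes, epithelial cells and fibroblasts (4 genes each) did not exceed 110.9 in any library, and MS4A1, PAX5, CD8A, ALAS2, HBG1, PF4, PPBP, CDH1, COL1A2 and DCN were at 0 throughout. Reads in bases shared by several listed transcripts appear to be dropped, as described below, which was not examined for the marker genes. Their zeros, that of CSF2RA included, therefore do not show absence of the transcript. In bulk RNA, fewer cells that express a gene and less RNA per cell cannot be told apart.

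How far the table can show a granule gene depends on its annotation. Reads were counted per transcript, and the pattern of values is that of a count which drops reads lying in bases shared by several listed transcripts. Of the main transcripts, those of MPO, CTSG, RNASE2, RNASE3 and SRGN shared no base with another listed transcript. LYZ retained 821 of 1490 exonic bases. The serine protease genes of chromosome 19 kept little: 191 of 1191 bases for CFD, 71 of 987 for PRTN3, 69 of 907 for AZU1 and 0 of 909 for ELANE. The main ELANE transcript was listed at 0 in all 12 libraries. The ELANE counts come from a longer transcript with 119 bases of its own and from a transcript that is absent from GENCODE release 44, whose bases could not be placed. Most AZU1 counts come from a longer transcript that kept 875 of 1713 bases. Levels of ELANE, PRTN3, AZU1 and CFD are therefore lower limits, and a low count for them is no measure of low expression. Whether use of transcripts shifted between groups was not tested.

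**Figure D1:**
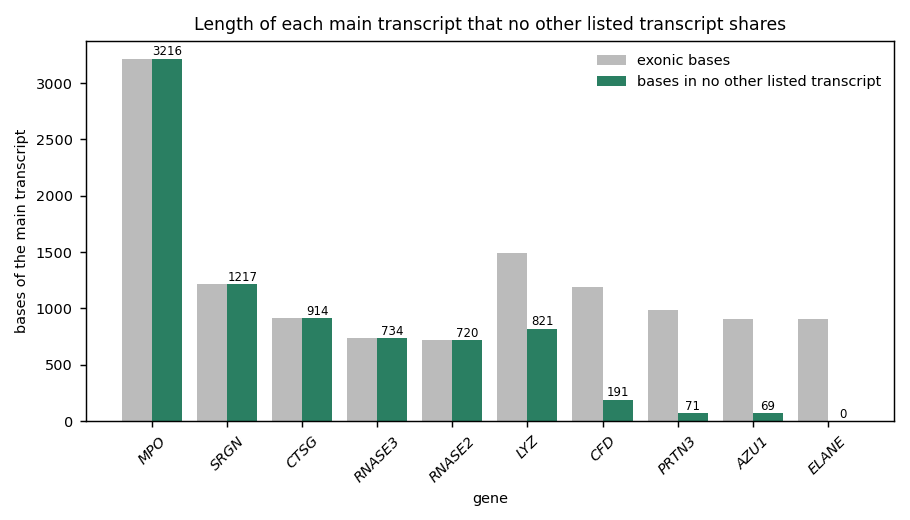
Exonic bases of the main (GENCODE canonical) transcript of each gene (grey) and the bases that no other listed transcript covers (green, number above each bar), in bases. MPO, SRGN, CTSG, RNASE3 and RNASE2 are fully unshared, LYZ keeps 821 bases, and CFD, PRTN3, AZU1 and ELANE keep 191, 71, 69 and 0.

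Promoter sequences from RefSeq (GRCh38.p14) were matched for 6 of the 10 genes, CTSG, PRTN3, AZU1, RNASE2, RNASE3 and CFD. Those of MPO, LYZ, SRGN and ELANE were not analysed here. The 250 bases before the start held 1 CpG, the site of DNA methylation, in RNASE2, 3 in CTSG, 5 in RNASE3, 6 in PRTN3, 7 in AZU1 and 11 in CFD, beside a median of 11 over 35116 promoters. Methylation was not measured. The sequences of RNASE2, RNASE3 and CTSG are shown because their genes carry the contrast between the drugs described below, and because RNASE2 and RNASE3 are near copies. Capitals mark letter matches on either strand to TTGCNNAA (C/EBP), GAGGAA (PU.1) and CAACNG (MYB), which occur in 9.05%, 23.6% and 27.0% of promoters of the same length. The windows are chr14:20955237-20955486 on the plus strand for RNASE2, chr14:20891135-20891384 on the plus strand for RNASE3 and chr14:24576251-24576500 on the minus strand for CTSG.
RNASE2: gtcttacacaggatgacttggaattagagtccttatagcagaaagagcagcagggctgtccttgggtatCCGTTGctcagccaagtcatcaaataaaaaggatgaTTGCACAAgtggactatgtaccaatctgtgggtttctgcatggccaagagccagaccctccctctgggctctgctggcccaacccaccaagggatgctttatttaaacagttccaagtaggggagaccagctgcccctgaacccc
RNASE3: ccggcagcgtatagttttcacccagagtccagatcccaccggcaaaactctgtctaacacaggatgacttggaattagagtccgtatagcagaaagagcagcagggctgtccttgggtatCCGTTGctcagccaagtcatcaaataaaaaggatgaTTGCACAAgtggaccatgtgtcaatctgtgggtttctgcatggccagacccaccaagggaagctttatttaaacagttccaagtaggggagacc
CTSG: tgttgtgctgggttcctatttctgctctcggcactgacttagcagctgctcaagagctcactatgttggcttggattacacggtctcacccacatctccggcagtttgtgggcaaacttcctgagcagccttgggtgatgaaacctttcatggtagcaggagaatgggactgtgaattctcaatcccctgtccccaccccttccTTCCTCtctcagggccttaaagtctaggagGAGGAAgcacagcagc
RNASE2 and RNASE3 were identical at 192 of 199 aligned promoter bases (96.5%, gaps not counted), with 1 C/EBP and 1 MYB match each in the same surroundings. Relative to the start, the C/EBP match began at -145 in RNASE2 and at -94 in RNASE3. CTSG held 2 PU.1 matches and neither of the others. PRTN3 held 1 match to each of the 3 motifs, and AZU1 held 1 C/EBP and 2 MYB matches. Neither TGTGGT (RUNX) nor AGGTCA, the core letters bound by retinoic acid receptors, which occur in 11.0% and 12.1% of all promoters, matched in these 6 windows.

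DAC raised most of the tested granule genes and ATRA lowered most of them. Against untreated cells, DAC raised MPO, LYZ, RNASE2, RNASE3, CTSG and SRGN, 6 of the 8 tested, at an adjusted p below 0.01 (limma, Benjamini-Hochberg over all tested genes). In that comparison 7.97% of all tested genes passed, 4.29% upward. ATRA lowered CTSG, LYZ, RNASE2, ELANE, RNASE3 and MPO, again 6 of 8, where 26.0% of all tested genes passed and 14.0% fell. With both drugs, MPO and SRGN stayed above untreated cells, CTSG, ELANE, RNASE3 and RNASE2 stayed below, and LYZ and AZU1 did not pass, while 28.9% of all genes did, 14.5% upward and 14.4% downward. The median log2 change of the 8 genes was 1.18 with DAC, -1.95 with ATRA and -0.63 with both, beside medians of -0.0041, -0.038 and -0.0039 over all tested genes. AZU1 is among the 8 only through its DAC libraries, and ELANE only through its untreated and DAC libraries. At an unadjusted p below 0.05, 7 were higher and 0 lower with DAC, and 0 higher and 6 lower with ATRA. DESeq2 on the recovered reads gave 6 higher and 6 lower, and edgeR gave 7 and 6. No share of all tested genes was set beside the counts of these settings, so they show only whether calls changed with the setting.

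The groups were also compared library by library. Among the 8 tested genes, every DAC library lay above every untreated library for 7, which held for 16.1% of all tested genes. AZU1 is 1 of the 7 and was tested only through its DAC libraries. For 6 every ATRA library lay below every untreated library (26.6% of all tested genes). ELANE is 1 of the 6 and was tested only through its untreated and DAC libraries. DAC+ATRA libraries lay wholly above untreated ones for MPO and SRGN (28.1% of all) and wholly below for 4 genes (27.6%). They lay wholly below DAC for 7 genes, AZU1 included (20.3%), and wholly above ATRA for 5 (21.5%, with 18.4% of all genes below). DAC libraries exceeded all ATRA libraries for all 8, AZU1 included (24.2%).

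**Figure D2:**
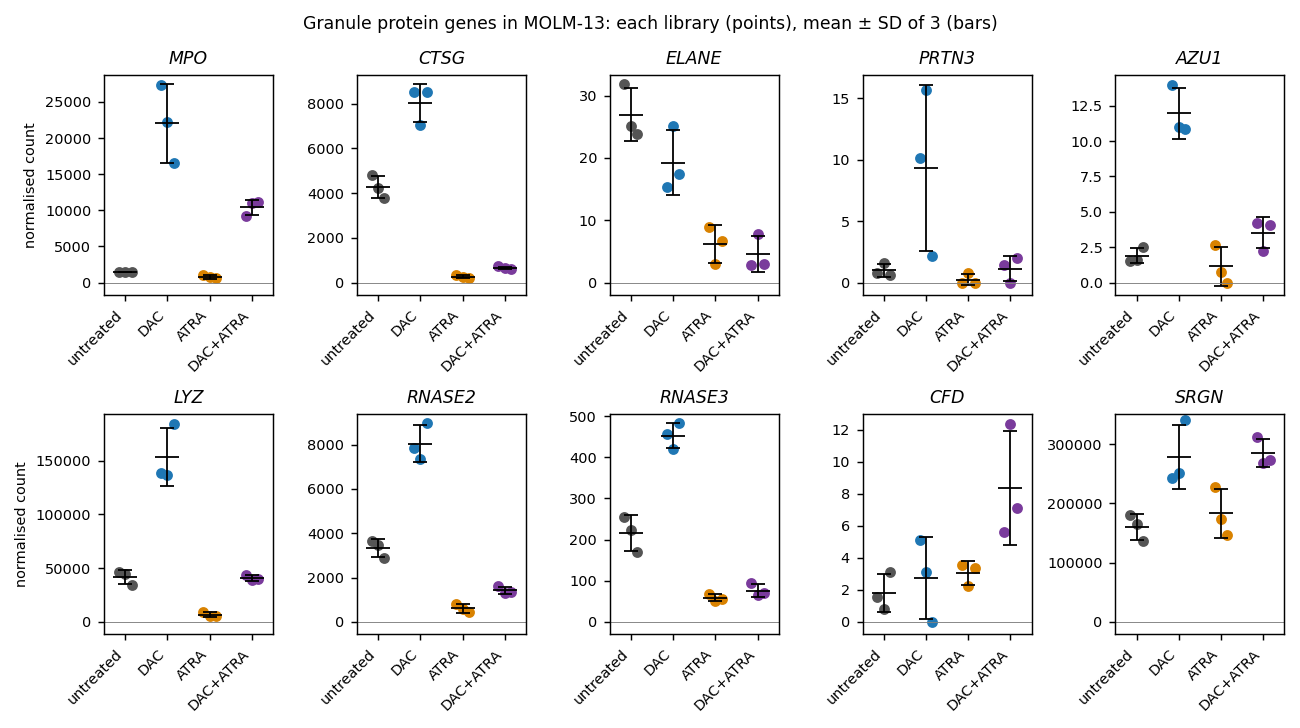
Normalised counts of the 10 genes on linear axes that differ between panels, with a point for each library and bars for the mean ± SD of 3 libraries per group. MPO, CTSG, LYZ, RNASE2 and RNASE3 are highest in all 3 DAC libraries and lowest or near lowest with ATRA, while SRGN is higher in both groups that received DAC.

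MPO, on chromosome 17 (58269855 to 58280935, minus strand), encodes myeloperoxidase, the heme enzyme that makes hypochlorous acid. Its normalised count was 1513, 1515 and 1511 in the untreated libraries and 27376, 22174 and 16548 with DAC. It was 1059, 776 and 580 with ATRA and 9201, 10966 and 11105 with DAC+ATRA. No 2 groups overlapped, and their order was DAC, DAC+ATRA, untreated, ATRA. The log2 change was 3.83 (SE 0.18, limma adjusted p = 4.38e-11) with DAC, a 14.2-fold rise, and -0.95 (adjusted p = 2.87e-04) with ATRA. With both drugs it was 2.78 (adjusted p = 3.18e-10), and DAC+ATRA lay 1.05 log2 units below DAC alone (adjusted p = 1.49e-04). MPO took 0.0202 to 0.0208% of all reads in untreated cells and 0.219 to 0.360% with DAC.

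CTSG (chromosome 14, 24573518 to 24576250, minus strand) encodes cathepsin G, a chymotrypsin-like serine protease. The untreated libraries held 4808, 4223 and 3801 normalised counts, and those with DAC 8498, 7049 and 8522. With ATRA the values were 329, 267 and 200, and with DAC+ATRA 721, 643 and 596. Again the groups did not overlap, but here DAC+ATRA lay far below untreated cells. The change with DAC was 0.91 on the log2 scale (SE 0.15, limma adjusted p = 2.92e-04), and with ATRA it was -4.03 (SE 0.15, adjusted p = 7.23e-14), a 16.3-fold fall and the largest with ATRA among the tested granule genes. DAC+ATRA differed from untreated by -2.71 (adjusted p = 3.19e-11) and from DAC by -3.62 (adjusted p = 6.36e-13).

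The ratio of MPO to CTSG within a library differed between the groups. It was 0.315 to 0.398 in untreated cells and 12.8 to 18.6 with both drugs. DAC alone gave 1.94 to 3.22 and ATRA alone 2.90 to 3.22, which overlapped. Every treated library lay above every untreated one in this ratio.

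ELANE, neutrophil elastase, lies on chromosome 19 (851014 to 856247, plus strand). It was counted at 31.9, 25.2 and 23.8 in untreated libraries and 15.3, 25.1 and 17.4 with DAC, which overlapped. ATRA gave 9.0, 3.0 and 6.7 and DAC+ATRA 2.8, 7.9 and 3.1. These values rest on 10, 4 and 8 reads with ATRA and on 2, 7 and 3 with both drugs. None of them reached 10 normalised counts, so ELANE was tested only through its untreated and DAC libraries. Both groups with ATRA lay below both without it. The log2 change was -0.48 with DAC (95% interval -1.42 to 0.46, limma adjusted p = 0.523), -2.04 with ATRA (adjusted p = 0.00124) and -2.43 for the combination (adjusted p = 2.41e-04). With the transcript of the highest mean in place of the sum, the ATRA and DAC+ATRA changes were -1.38 (adjusted p = 0.0271) and -1.60 (adjusted p = 0.0107) and no longer passed. Without ATRA replicate 2 the ATRA change was -1.67 (adjusted p = 0.0103).

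Both ELANE transcripts with reads were lower with ATRA. The one with 119 unshared bases held 15.6, 9.7 and 13.2 in untreated cells, 6.4, 14.1 and 5.4 with DAC, 0.90, 0 and 2.5 with ATRA, and 0, 1.1 and 0 with both drugs. The one outside release 44 held 16.3, 15.4 and 10.7, then 8.9, 10.98 and 11.97, then 8.1, 3.0 and 4.2, and finally 2.8, 6.8 and 3.1 in the same order of groups. In both transcripts the ATRA libraries lay below every untreated library.

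AZU1 (chromosome 19, 825097 to 832018, plus strand) encodes azurocidin, an inactive relative of the serine proteases with antibacterial activity. Its 3 DAC libraries held 13.99, 10.98 and 10.89 normalised counts, from 11, 7 and 10 reads, above every other library. Untreated cells gave 1.6, 1.6 and 2.5, ATRA 2.7, 0.74 and 0, and DAC+ATRA 4.2, 2.3 and 4.1. All AZU1 reads of the DAC libraries fell on a longer transcript that starts at 825097. The main AZU1 transcript was at 0 in these libraries, so a rise of it is not shown. The AZU1 promoter window described above lies before the start of the main transcript. The log2 change of the summed AZU1 count with DAC was 2.17 (SE 0.60) with a limma adjusted p of 0.0190, which missed the threshold. Over the alternatives this p ranged from 0.00534 to 0.0665. It passed with edgeR (adjusted p = 0.00751) and not with DESeq2 (adjusted p = 0.0116).

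PRTN3 (chromosome 19, 840999 to 848175, plus strand), which encodes another neutrophil serine protease, held 8, 10 and 2 reads in the DAC libraries and 1, 2 and 1 in untreated ones. It held 0, 1 and 0 with ATRA and 1, 0 and 2 with both drugs, so DAC was the only group with a library above 3 reads. CFD (859453 to 867884 on the same strand), complement factor D, held 4, 11 and 7 reads with DAC+ATRA, against 2, 1 and 5 in untreated, 4, 2 and 0 in DAC and 4, 3 and 4 in ATRA cells. Normalised, its DAC+ATRA libraries held 5.6, 12.4 and 7.1, of which replicate 1 rests on 4 reads, as many as the highest DAC and ATRA libraries held. When genes at any level were fitted (15375 genes), PRTN3 with DAC (limma adjusted p = 0.0305) and CFD with DAC+ATRA (change 1.74, adjusted p = 0.0396) did not pass against untreated cells. In the same fit PRTN3 passed between DAC and ATRA (adjusted p = 0.00146). Set against 3 reads per ATRA library its mean with DAC was at least 3.77-fold higher, although DAC replicate 3 itself held 2 reads. AZU1, PRTN3, ELANE and CFD lie within 42.8 kb of chromosome 19, in a stretch where the nearest tested neighbours PLPPR3 and MED16 changed by -0.19 (adjusted p = 0.645) and -0.029 (adjusted p = 0.969) with DAC. MED16 held only 24, 8 and 20 reads in the DAC libraries, so its change is poorly measured.

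LYZ (chromosome 12, 69348381 to 69354234, plus strand) encodes lysozyme, which cleaves the bacterial cell wall. It was counted at 46320, 44291 and 34274 in untreated cells and at 138676, 136550 and 184635 with DAC. ATRA gave 9402, 5774 and 5282 and DAC+ATRA 43517, 39104 and 39835. The DAC+ATRA values lay inside the untreated range, and the other groups were apart. DAC raised LYZ by 1.88 on the log2 scale (SE 0.18, limma adjusted p = 7.66e-07) and ATRA changed it by -2.65 (adjusted p = 6.45e-10). The difference between DAC+ATRA and untreated was -0.018 (95% interval -0.39 to 0.36, adjusted p = 0.950). A short LYZ transcript was also highest after DAC and lowest after ATRA, with 129 to 150 normalised counts when untreated, 212 to 322 after DAC, 6.0 to 14.2 after ATRA and 42.0 to 67.4 after both. Unlike the summed count, its DAC+ATRA values lay below every untreated library.

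RNASE2 (chromosome 14, 20955487 to 20956436, plus strand) encodes eosinophil-derived neurotoxin. RNASE3 (20891385 to 20892348, plus strand) encodes eosinophil cationic protein, and the genes of these secreted ribonucleases lie within 65.1 kb. RNASE2 held 3664, 3492 and 2884 normalised counts in untreated cells, 7829, 7355 and 8966 with DAC, 827, 589 and 436 with ATRA, and 1620, 1310 and 1335 with both drugs. RNASE3 held 255, 223 and 170 in untreated cells, 455, 420 and 482 with DAC, 68.1, 51.3 and 56.0 with ATRA, and 93.8, 65.3 and 69.4 with both. For both genes the order was DAC, untreated, DAC+ATRA, ATRA, and for RNASE3 the last pair overlapped. DAC raised RNASE2 by 1.27 (SE 0.17, limma adjusted p = 3.17e-05) and RNASE3 by 1.08 (SE 0.19, adjusted p = 4.66e-04). ATRA changed them by -2.48 (adjusted p = 6.82e-10) and -1.86 (adjusted p = 1.64e-07).

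The 2 ribonuclease transcripts were 88.8% identical over aligned bases, gaps not counted. Of the 671 windows of 50 bases in RNASE2, 21 (3.13%) also occurred in RNASE3. How reads from these windows were assigned was not tested. RNASE2 held many times the reads of RNASE3, so a part that is small for RNASE2 need not be small for RNASE3. The ratio of RNASE2 to RNASE3 was 14.4 to 17.0 when untreated, 17.2 to 18.6 after DAC, 7.79 to 12.1 after ATRA and 17.3 to 20.1 after both. The ATRA libraries lay below all others in this ratio.

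SRGN (chromosome 10, 69088103 to 69104805, plus strand) encodes serglycin. It took 1.82 to 2.46% of all reads when untreated, 3.20 to 4.50% after DAC, 1.97 to 3.05% after ATRA and 3.67 to 3.98% after both. Its normalised counts were 179941, 164778 and 136424 in untreated cells, 243534, 251772 and 341014 with DAC, 228410, 173678 and 147059 with ATRA, and 312112, 268886 and 272924 with both. The 2 groups with DAC lay above the 2 without it. The log2 change was 0.79 with DAC (SE 0.18, limma adjusted p = 0.00422), 0.18 with ATRA (95% interval -0.19 to 0.54, adjusted p = 0.473) and 0.83 for the combination (adjusted p = 8.11e-04). The DAC call was lost without untreated replicate 2 (adjusted p = 0.0163), without untreated replicate 3 (adjusted p = 0.0282), with no filter on low values (adjusted p = 0.057) and with the other groups left out of the fit (adjusted p = 0.0861). The DAC+ATRA call was lost with no filter (adjusted p = 0.0195).

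**Figure D3:**
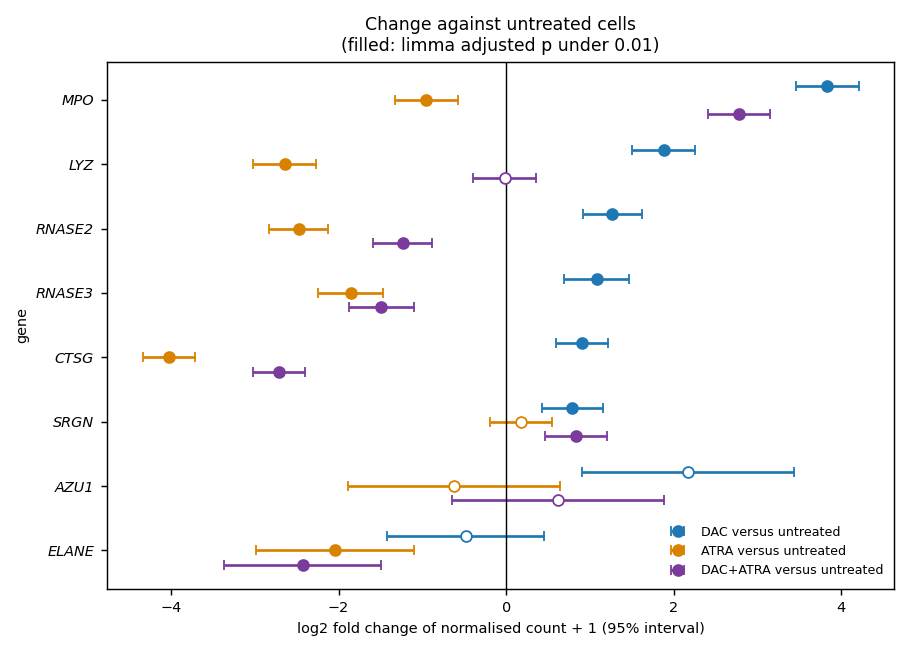
Log2 change of normalised count + 1 against untreated cells for the 8 tested genes, with 95% intervals, for DAC (blue), ATRA (orange) and DAC+ATRA (purple). Filled points passed a limma adjusted p below 0.01. MPO runs from 3.83 with DAC to -0.95 with ATRA, CTSG from 0.91 to -4.03, and the LYZ interval with both drugs spans 0.

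The treated groups, which share a labelled time, were compared directly. DAC and ATRA cells differed in all 8 tested genes, each higher with DAC, where 29.4% of all genes passed and 16.2% were higher with DAC. ELANE counts among them only through its untreated and DAC libraries. AZU1 counts among them only through its DAC libraries, and its ATRA libraries all held 3 reads or fewer. Set against 3 reads per ATRA library, its mean with DAC was at least 4.83-fold higher. The log2 differences were 4.94 for CTSG, 4.79 for MPO, 4.52 for LYZ, 3.75 for RNASE2, 2.94 for RNASE3, 1.56 for ELANE and 0.61 for SRGN, with limma adjusted p from 2.51e-15 for CTSG to 0.00889 for ELANE. The ELANE and SRGN (adjusted p = 0.00856) calls were close to the threshold and were lost under 14 of 24 and 10 of 25 alternatives. The ELANE call was lost without any 1 of the untreated or DAC libraries, without ATRA replicate 2 or without ATRA replicate 3, with differences of 1.18 to 1.70 and adjusted p up to 0.0578 in these fits. The SRGN call was lost without untreated replicate 2, DAC replicate 3, ATRA replicate 2, ATRA replicate 3 or any 1 of the DAC+ATRA libraries, with differences of 0.46 to 0.61 and adjusted p up to 0.0530.

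Adding ATRA to DAC lowered 6 of 8 genes, where 18.8% of all genes passed and 9.74% fell. Of the 6, ELANE was tested only through its untreated and DAC libraries. The changes were -3.62 for CTSG, -2.57 for RNASE3, -2.50 for RNASE2, -1.94 for ELANE, -1.90 for LYZ and -1.05 for MPO. SRGN differed by 0.044 (95% interval -0.32 to 0.41, limma adjusted p = 0.883) and AZU1 by -1.54 (adjusted p = 0.0626). The ELANE change (adjusted p = 0.00264) missed the threshold when DAC replicate 2 (-1.75), DAC+ATRA replicate 1 (-1.72) or DAC+ATRA replicate 3 (-1.77) was left out, with the other groups left out of the fit, and with the transcript of the highest mean (-1.23, adjusted p = 0.0578).

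Adding DAC to ATRA raised 4 of 8 genes, where 11.9% of all genes passed and 6.47% rose. MPO rose by 3.73 (13.3-fold, limma adjusted p = 3.39e-11), LYZ by 2.63 (adjusted p = 5.75e-09), CTSG by 1.32 (adjusted p = 3.10e-06) and RNASE2 by 1.24 (adjusted p = 2.91e-05). RNASE3, the near copy of RNASE2, changed by 0.37 (95% interval -0.022 to 0.76, adjusted p = 0.178), ELANE by -0.38 (adjusted p = 0.593) and AZU1 by 1.25 (adjusted p = 0.158). SRGN changed by 0.66 (adjusted p = 0.0112) and passed with DESeq2 (adjusted p = 0.00122) and edgeR (adjusted p = 0.00306).

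Whether one drug altered the log2 effect of the other was asked with the interaction term, the DAC effect with ATRA minus that without it. No granule gene passed (limma), where 1.60% of all genes did, 0.724% with a term above 0 and 0.874% below. At an unadjusted p below 0.05 there were 2, LYZ and RNASE3, and DESeq2 and edgeR called 0. The share of all genes at that unadjusted p was not set beside this count. The term was -0.10 for MPO (95% interval -0.63 to 0.43) and -0.025 for RNASE2 (-0.52 to 0.48). It was 0.41 for CTSG (-0.026 to 0.85) and 0.10 for ELANE (-1.23 to 1.43). It was -0.13 for SRGN (-0.65 to 0.39) and -0.92 for AZU1 (-2.71 to 0.87). For LYZ it was 0.75 (0.22 to 1.28, adjusted p = 0.129) and for RNASE3 -0.71 (-1.26 to -0.16, adjusted p = 0.175), in opposite directions. Without ATRA replicate 1, the LYZ term was 1.01 and passed (adjusted p = 0.00938). At these widths the intervals do not show that the effects were equal.

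**Figure D4:**
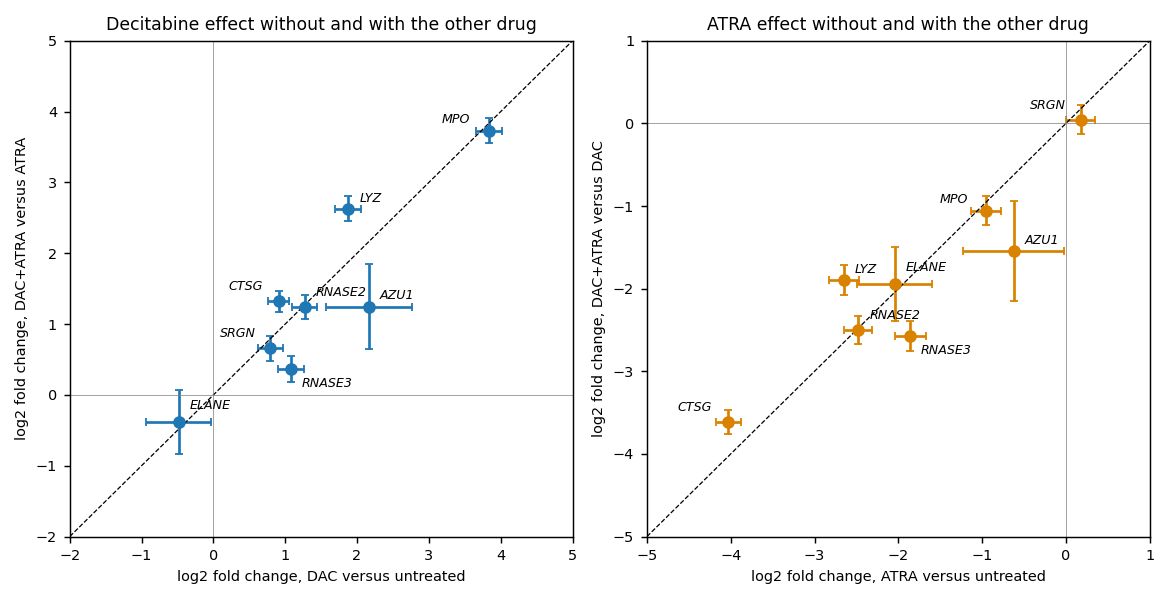
Left, the log2 change with DAC in the absence (x) and presence (y) of ATRA; right, the log2 change with ATRA in the absence (x) and presence (y) of DAC, for the 8 tested genes with SE. The dashed line marks equal effects: in the left panel MPO lies near it at 3.83 and 3.73, LYZ above it and RNASE3 below it. The vertical distance from the line is the interaction term in either panel, so the right panel repeats the left in this respect. No gene shown passed for that term (limma).

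The related genes came from lists of other granule, sorting, inhibitor and regulator genes. Loss of reads in shared bases was not examined for these genes, so a change may rest on part of their transcripts. The counts of each list stand beside 4.29% higher and 3.67% lower among all tested genes with DAC, and 12.1% higher and 14.0% lower with ATRA. Of 4 tested eosinophil granule genes, DAC raised 3 and ATRA lowered all 4 (limma), with median log2 changes of 2.45 and -3.81, or -3.28 with PRG3 at its bound, since its ATRA libraries held 1 read in all. CLC, the Charcot-Leyden crystal protein, averaged 126 normalised counts when untreated, 2396 after DAC, 22.05 after ATRA and 907 after both, the order seen for MPO. EPX, eosinophil peroxidase, whose gene ends 64.7 kb from MPO, averaged 734, 1982, 87.1 and 294, the order seen for RNASE2. PRG2, the major basic protein, averaged 1134 in untreated and 1368 in DAC cells (change 0.21, adjusted p = 0.610) and fell to 39.9 with ATRA (-4.81, adjusted p = 4.56e-12). PRG3 averaged 27.9 in untreated, 316 in DAC and 38.8 in DAC+ATRA cells.

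Of 11 tested transcription factors of granule genes, DAC raised 1 and lowered 1 (7.97% of all tested genes passed), and ATRA raised 2 and lowered 6 (26.0% of all), with medians of 0.11 and -0.53. CEBPE, a C/EBP factor of granulocyte maturation, had the order of MPO: 315 ± 29.3 when untreated, 1627 ± 174 after DAC, 96.5 ± 2.74 after ATRA and 806 ± 21.2 after both (SD, n = 3), with log2 changes of 2.37, -1.69 and 1.36 that all passed. CEBPA, which starts the granulocyte program, fell with ATRA (-1.34, adjusted p = 2.01e-07) and with both drugs (-0.77, adjusted p = 1.46e-04). CEBPB, active in later myeloid stages, rose with ATRA (2.01, adjusted p = 1.38e-09) and with both (1.08, adjusted p = 7.03e-06). RUNX1 fell with ATRA from a mean of 41.1 to 15.1 normalised counts (-1.47, limma adjusted p = 0.00209). Its ATRA libraries held 9, 21 and 26 reads.

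Later granules were represented by 6 tested genes. Of these secondary and tertiary granule genes, DAC raised 4 and ATRA raised 2 and lowered 2 (medians 1.90 and -0.86). MMP9, gelatinase B, averaged 14.3 when untreated, 379 after DAC, 604 after ATRA and 2866 after both, and rose in all 3 comparisons. CEACAM8, a surface marker stored in these granules, was at 0 reads in all untreated and DAC libraries and at 12 to 21 reads in the ATRA ones. TCN1, a vitamin B12 carrier, fell with ATRA (-2.72, adjusted p = 0.00182), and FCN1, ficolin-1, rose with DAC (3.65, adjusted p = 5.74e-04). FCN1 is among the 6 only through its DAC libraries, at 106 to 118 normalised counts against 4.4 to 13.8 when untreated. CEACAM8 is among them only through its libraries with ATRA. TCN1 is among them only through its untreated and DAC libraries, and its ATRA libraries held 4, 2 and 1 reads. Of 3 other tested primary granule genes (BPI, CD63 and PRSS57), none passed with DAC in limma (median change 0.57), 3 had an unadjusted p below 0.05, DESeq2 called 2 higher and edgeR 1. Beside the counts at the unadjusted p and with DESeq2 and edgeR, no share of all genes was set. With ATRA the median was 0.26, and 1 fell, PRSS57, a serine protease (-1.36, adjusted p = 5.11e-07).

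Genes that fold, activate and inhibit the granule proteases were split: of 12 tested, DAC raised 4, where 4.29% of all tested genes were higher, and ATRA raised 3 and lowered 4, where 26.0% of all passed (medians 0.43 and -0.10). CST7, cystatin F, rose with DAC (0.63, adjusted p = 0.00121) and fell with ATRA (-1.51, adjusted p = 7.27e-09). SLPI, an inhibitor of elastase and cathepsin G, averaged 23.0 in untreated, 140 in DAC and 87.4 in DAC+ATRA cells, both rises passing. A2M, a broad protease inhibitor, and CST3, cystatin C, rose with ATRA (by 1.496 and 1.119).

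Of 14 tested granule sorting and release genes, none passed with DAC in limma, DESeq2 or edgeR (median 0.19, 3 at an unadjusted p below 0.05). For the count at the unadjusted p no share of all genes is given. ATRA raised 2 and lowered 3 (median 0.069), where 26.0% of all tested genes passed. RAB27B, which docks granules, averaged 36.1 in untreated cells and held 3 reads in each ATRA library. It is among the 14 only through its untreated and DAC libraries. SYTL1, a RAB27 effector, fell with ATRA from 71.1 to 7.19 (-3.16, adjusted p = 1.26e-07), and RAB27A fell (-1.05, adjusted p = 0.00288). RAB27A held 22, 32 and 29 reads in the ATRA libraries. Of 11 tested genes for proteoglycan chains, which are attached to serglycin, DAC lowered 1, near the 7.97% of all tested genes that passed, and ATRA raised 3 and lowered 2, where 26.0% passed (medians 0.015 and -0.12). CHST15, which adds a sulfate to chondroitin, was at 0 reads in untreated and at 265 to 338 reads in ATRA libraries. It is among the 11 only through its libraries with ATRA. XYLT1, which starts the chains, fell with DAC (-0.75, adjusted p = 2.91e-04).

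Of 6 tested alternative complement pathway genes, DAC raised 2 and ATRA raised 2 and lowered 2 (medians 1.66 and -0.41). CFP, properdin, rose with DAC (1.55, adjusted p = 7.41e-04) and ATRA (3.51, adjusted p = 7.02e-09), and C3 rose with DAC (0.52, adjusted p = 0.00893) and fell with ATRA (-1.11, adjusted p = 1.18e-06). Of the ribonuclease list, RNASE6 and RNASET2 were tested, and RNASET2 changed by -0.033 with DAC (adjusted p = 0.912) and 0.34 with ATRA (adjusted p = 0.0712).

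**Figure D5:**
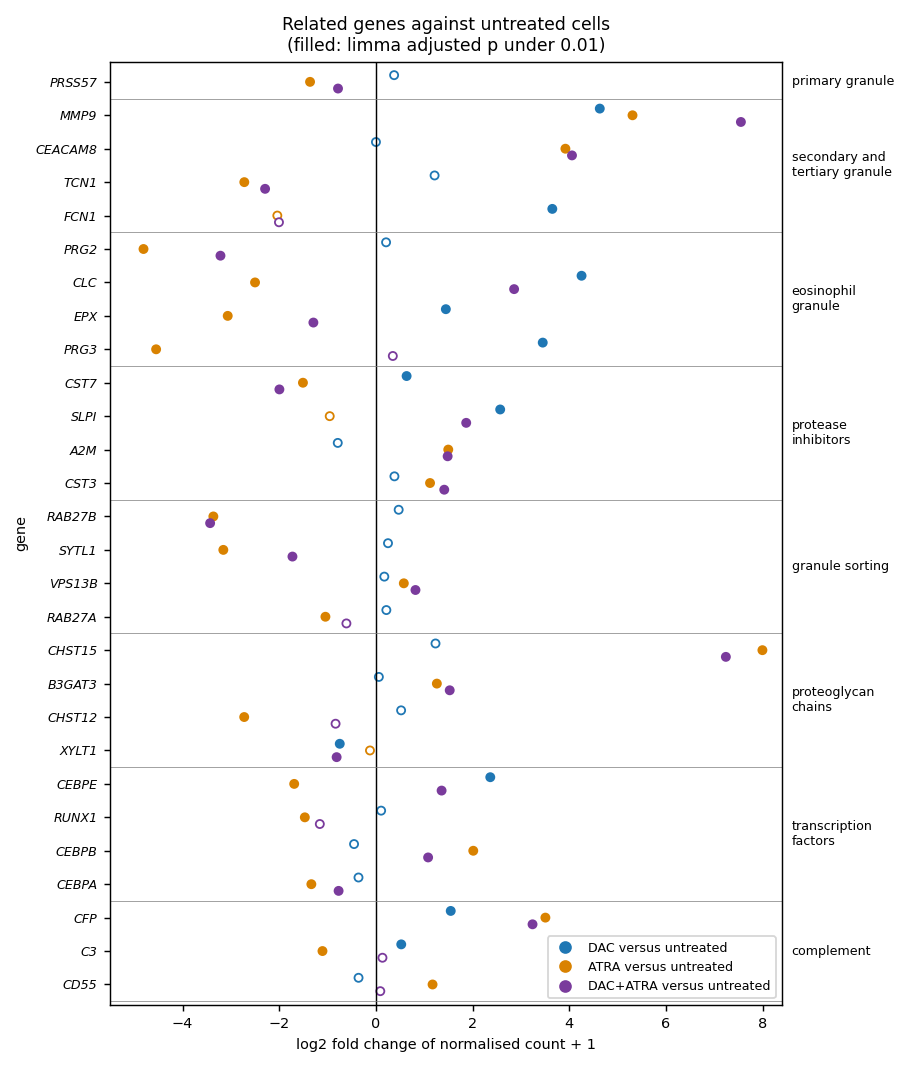
Log2 change of normalised count + 1 against untreated cells for the named genes of 8 related lists, in DAC (blue), ATRA (orange) and DAC+ATRA (purple); filled points passed a limma adjusted p below 0.01. CLC, EPX, PRG3 and CEBPE lie to the right with DAC and to the left with ATRA, whereas MMP9 and CFP lie to the right throughout; CEACAM8 and CHST15 were at 0 reads in untreated cells, and PRG3 and RAB27B at 3 reads or fewer in each ATRA library, so those positions are no measured size.

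The nearest tested genes on either side of the granule genes numbered 13. With DAC 1 was lower, where 7.97% of all tested genes passed, and with ATRA 1 was lower, where 26.0% passed. With both drugs SDR39U1 was higher and YEATS4, CPSF6 and G2E3 were lower, where 28.9% passed, and G2E3 lies 5982.9 kb from CTSG. LPO, lactoperoxidase, which ends 1.3 kb from MPO, changed by 0.015 with DAC (limma adjusted p = 0.986), and TSPOAP1, 20.3 kb to the other side, fell by 1.39 (adjusted p = 0.00655). LPO held only 14, 9 and 10 reads in the DAC libraries. Loss of reads in shared bases was not examined for the neighbours. YEATS4, 5.5 kb from LYZ, changed by -0.20 with DAC (adjusted p = 0.619) and fell with ATRA (-1.14, adjusted p = 5.48e-04) and with both drugs (-1.15, adjusted p = 4.72e-04). RNASE6, of the same family as RNASE2 and RNASE3 and 108.9 kb from RNASE3, changed by 0.46 with DAC (adjusted p = 0.0253) and -0.37 with ATRA (adjusted p = 0.0349).

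For the 4 granule genes with the highest counts, the genes with the most similar profile were named by Pearson's r of log2 values over the 12 libraries, which share the 4 groups. MPO was followed most closely by STAB1 (r = 0.991), AGT (0.988) and NAV3 (0.980), which averaged 286, 276 and 655 normalised counts with DAC and 2.22, 34.5 and 3.64 with ATRA. LYZ was followed by H1-1 (0.995), CALR (0.994), the chaperone calreticulin, and MNDA (0.993), a nuclear protein of myeloid cells. RNASE2 was followed by ANO5 (0.991), CAT (0.989), catalase, and JPH1 (0.989). SRGN was followed by TIMMDC1 (0.971), THEM4 (0.971) and NCBP1 (0.971).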

How the data were processed

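RNA of 12 MOLM-13 libraries in 4 groups of 3 was analysed. Per the labels and methods, the authors used STAR (hg38) for alignment, htseq-count for reads per Ensembl transcript and DESeq2 size factors as divisors. The deposited values are thus a normalised signal, from which whole reads were recovered for 100% of values (within 0.01 reads). Tool versions are not given in the sources used here. The 100502 rows were summed per symbol. Positions and biotypes came from GENCODE release 44 on GRCh38, which held 88.9% of row transcripts. Columns named CTRL were taken as untreated. Protein-coding genes reaching 10 normalised counts in 3 libraries (10642) were tested with limma 3.58.1 (trend) in R 4.3.3 on log2(value + 1), all groups in a single fit, with Benjamini-Hochberg adjustment at 0.01, and fold changes on this scale understate the change of low genes. The method was tested on simulated data. Alternatives used DESeq2 1.42.0, edgeR 4.0.16 and other scalings, filters, pseudocounts, samples and a replicate block. Members and lists were chosen with earlier results of these data known. From each related list, up to 4 genes with the largest DAC+ATRA change among those called against untreated were named, from each of the 4 members with the highest counts the 3 most alike genes, and for each member its nearest tested neighbours. A gene named by this rule and a marker gene are not reported here.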

Additional observations from a re-analysis of the deposited data

How the results depend on the processing

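The number of granule genes called stayed within 1.5 times its reported value under every alternative run, except that the interaction count went from 0 to between 0 and 1 when single libraries were left out. The calls for MPO, CTSG, LYZ, RNASE2 and RNASE3 kept their direction and side of the threshold in all comparisons other than the interaction and the uncalled LYZ difference of DAC+ATRA from untreated. Differences near 0, none of them called, turned sign when single libraries were left out, and the cause was not tested. Over these fits LYZ in DAC+ATRA against untreated ranged from -0.152 to 0.0656 and SRGN in DAC+ATRA against DAC from -0.0451 to 0.198. The interaction ranged from -0.317 to 0.117 for MPO, -0.292 to 0.383 for ELANE, -0.251 to 0.210 for RNASE2 and -0.278 to 0.0395 for SRGN, and total-count scaling put RNASE2 at 0.0291. AZU1 with DAC passed in 5 of 24 alternatives. Over all genes, the DAC count of 848 was 371 with only the groups compared, 540 and 509 without untreated replicates 1 and 2, 1385 without DAC replicate 3 and 1638 at 0.05. DAC+ATRA against ATRA went from 1270 to 819 without ATRA replicate 2 and also without DAC+ATRA replicate 2, and to 2244 at 0.05. DAC+ATRA against DAC went from 1998 to 3055 at 0.05. The interaction count went from 170 to 323 with DESeq2, 106, 262 and 112 without untreated replicate 2, DAC replicate 3 and DAC+ATRA replicate 2, and 386 at 0.05.

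The replicate numbers were no sign of pairing: deviations of same-numbered libraries correlated from -0.263 to 0.114, over 0.1 in 2 of 18 pairs. With the replicate block, DAC against ATRA called 7 granule genes, since ELANE missed the threshold (limma adjusted p = 0.0149), the counts of the other comparisons were those reported, and 742 genes in all passed with DAC. Reads of 4.67 M in the shallowest library limit AZU1, PRTN3 and CFD to a few reads each. ELANE held only 2 to 10 reads in each library given ATRA, alone or with DAC.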
